A study of Homo sapiens with 8 samples.

Results

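PAXIP1 and the subunits that belong to the KMT2C/D complexes alone were followed as single gene knockouts through 72 h of EGFR inhibition. The 6 genes are PAXIP1, PAGR1, KMT2C, KMT2D, KDM6A and NCOA6, taken by name out of 18052 gene names, and they account for 24 of the 71090 guides in the count table. A filter on low counts kept 23 of these guides, 3 for KDM6A and 4 for each other member, so all 6 members were among the 17761 genes tested. The members were picked by name with L2FC values of these same counts already known, and every comparison below counts as used in that choice, so their own values stand as a description without a test.

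KMT2C and KMT2D are the methyltransferases that place the H3K4me1 mark at enhancers, and KDM6A (UTX) and NCOA6 travel in the same complexes as an H3K27 demethylase and a coactivator of nuclear receptors. PAXIP1 (PTIP) and PAGR1 (PA1) bind each other and are found in KMT2C/D complexes but not in those of the other KMT2 enzymes, while WDR5, RBBP5, ASH2L and DPY30 form a core that every KMT2 complex shares. PAXIP1 also works outside chromatin marking, as a partner of 53BP1 at DNA breaks.

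The screen was run in PC9, a non-small cell lung cancer line with an activating EGFR mutation, made to express Cas9 and infected with the pooled TKOv3 guide library. These features and selection with puromycin are common to all 4 groups, each with 2 libraries. T0 cells were harvested just before drugs were added (0 h), and untreated cells received DMSO for 72 h. The remaining groups received either 10 µM erlotinib or 0.1 µM osimertinib, both EGFR kinase inhibitors, for 72 h. By the methods, untreated cells were passaged on the day after drugs were added, and live cells were collected at the end. No passage is given for drug-treated cells, so drug and passage cannot be told apart against untreated cells. The doses differ between the drugs, and an arm at a higher dose of osimertinib is left aside as not analysed here. The labels say that infections were done in duplicate, but not which cultures descend from which infection. All p-values therefore measure only how far guides or these libraries spread, which may be technical. Guide counts from genomic DNA hold no expression markers against which the identity of the line could be checked.

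A guide's share of the reads was read as its knockout's share of the cells. The share is relative, so fewer deaths, faster division and a slower loss of one population beside others cannot be told apart. Libraries held 32096281 to 39200466 reads, with a median of 445 to 549 reads per guide. Across guides, replicate counts correlated with r from 0.964 (osimertinib) to 0.978 (T0). Replicates differed by more than counting error in every group, the chi-square over its degrees of freedom lying between 2.66 (T0) and 5.07 (osimertinib), and were counted as separate libraries. Values are log2 fold changes (L2FC) of a gene, the median over its guides minus the median of 138 non-targeting guides, given ± the SD between guides.

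PAXIP1 knockouts became more abundant under both drugs and most of all under osimertinib. The 4 guides were read in similar numbers at T0 and in untreated cells and in larger numbers under osimertinib. Guide 1 had 443 and 496 reads at T0, 432 and 491 in untreated cells, 464 and 497 under erlotinib, and 620 and 829 under osimertinib. Guide 2 had 722 and 799 reads at T0, 691 and 737 in untreated cells, 848 and 743 under erlotinib, and 1133 and 1254 under osimertinib. Guide 3 had 690 and 732 reads at T0, 537 and 758 in untreated cells, 705 and 784 under erlotinib, and 1215 and 1299 under osimertinib. For guide 4, the most abundant, counts went from 1019 and 982 at T0 and 939 and 936 in untreated cells to 1089 and 1191 under erlotinib and 1641 and 1775 under osimertinib. For each of the 4 guides, both osimertinib counts lay above all other counts of that guide.

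The level of each knockout in a library was then taken as the median over guides of log2 CPM relative to the same guide at T0 and to the non-targeting guides of the library. By construction the T0 libraries average close to 0. The PAXIP1 level was -0.17 and -0.14 in untreated cells, 0.13 and 0.18 under erlotinib, and 0.52 and 0.65 under osimertinib. The order was osimertinib, erlotinib, T0, untreated, and no neighbours in that order overlapped.

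**Figure D1:**
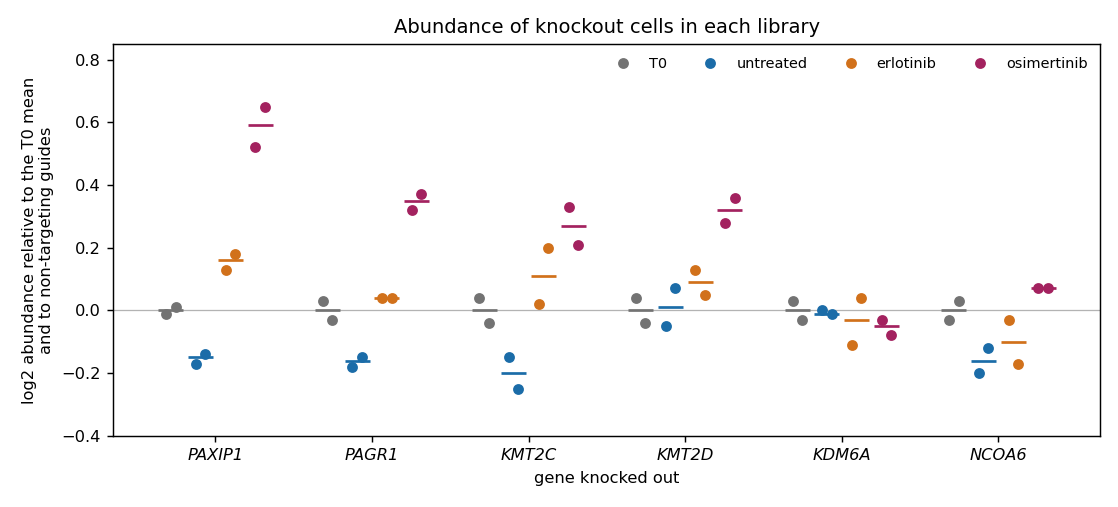
Level of each member's knockout (log2 abundance, set to the T0 mean and the non-targeting guides, y axis) by gene (x axis). Each dot is 1 library and each bar the mean of the 2 libraries of a group. Osimertinib libraries lie above all other libraries for 5 of the 6 members, beside 2.44% of all genes, with PAXIP1 at 0.52 and 0.65 and KMT2D resting there on sparse guides, while the 4 groups of KDM6A lie between -0.11 and 0.04.

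For osimertinib versus untreated, the PAXIP1 L2FC was 0.76 ± 0.14 (n = 4 guides), which is 1.70-fold, with single guides between 0.61 and 0.92. This placed PAXIP1 at rank 6 from the top of 17761 genes. Under erlotinib, the L2FC against untreated cells was 0.34 ± 0.09, or 1.27-fold, with guides between 0.22 and 0.44 and a rank of 353. Both comparisons use the same untreated libraries. Leaving out each library in turn gave L2FC between 0.71 and 0.82 for osimertinib and between 0.26 and 0.36 for erlotinib, and PAXIP1 was past the genome-wide threshold every time.

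Set against T0 rather than untreated cells, PAXIP1 knockouts had gained 0.58 ± 0.09 under osimertinib (rank 9) and 0.14 ± 0.07 under erlotinib (rank 115). The erlotinib gain over T0 was below the threshold without T0 library 1 (0.12), without erlotinib library 2 (0.13) and with limma (0.15). In untreated cells the L2FC from T0 was -0.20 ± 0.05, near the median of all genes (-0.17). Compared directly, erlotinib was below osimertinib by an L2FC of -0.39 ± 0.09, with all 4 guides between -0.56 and -0.38, and only 7 genes were lower in this comparison.

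PAGR1, whose product is the direct partner of PAXIP1, had the same order of groups at smaller values. Its level was -0.18 and -0.15 in untreated cells, 0.04 and 0.04 under erlotinib, and 0.32 and 0.37 under osimertinib, against 0.03 and -0.03 at T0. Osimertinib lay clear of all other libraries, erlotinib lay just above T0, and no groups overlapped.

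The L2FC of PAGR1 for osimertinib versus untreated was 0.50 ± 0.20 (n = 4 guides, 1.41-fold, rank 77), with guides at 0.40, 0.32, 0.76 and 0.60. Under erlotinib it was 0.16 ± 0.15 relative to untreated cells, with all 4 guides above 0 but as low as 0.06, and it did not pass the threshold with the median over guides and edgeR, although it did with the mean over guides (0.19) and with limma (0.22). From T0 it had gained 0.37 ± 0.16 under osimertinib and 0.03 ± 0.11 under erlotinib. The direct difference of erlotinib from osimertinib was -0.32 ± 0.08 (guides between -0.43 and -0.26), which was not past the threshold without osimertinib library 1 (-0.28).

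Genes around PAGR1 on chromosome 16 moved in the same direction. By the order of genes in RefSeq (GRCh38.p14), the 10 tested genes on each side had a median L2FC of 0.25 for osimertinib versus untreated, and 11 of these 20 passed the threshold as higher. They ranged from -0.22 to 0.61, and only TAOK2, at 0.61, exceeded PAGR1, which stood 0.25 above their median. In the erlotinib comparison the neighbours' median was 0.06, 6 passed as higher and 8 lay above PAGR1. Relative to T0, their median was 0.18 under osimertinib, where 11 passed as higher (beside 1.45% of all genes) and 2 as lower. Under erlotinib it was 0.01 relative to T0, where 4 passed as higher (beside 0.625%) and 1 as lower. For erlotinib versus osimertinib the median was -0.15, where 5 passed as lower (beside 1.01%) and 1 as higher. These neighbours' part in the PAGR1 results was not tested.

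PAXIP1 and KMT2C both lie on chromosome 7 with 3 tested genes between them, and their surroundings stayed near 0. The 20 neighbours of PAXIP1 had a median of 0.02 for osimertinib versus untreated, and the 1 neighbour that passed as higher was KMT2C itself. None of the 20 reached PAXIP1, which stood 0.75 above their median. Around KMT2C the median was 0.04, and the 1 neighbour past the threshold was PAXIP1. Medians were 0.03 around KMT2D on chromosome 12, 0.00 around KDM6A on chromosome X and 0.09 around NCOA6 on chromosome 20. For erlotinib versus osimertinib, the neighbours of NCOA6 had a median of -0.11, and 2 of the 20 passed as lower. Their part in the NCOA6 value was not tested.

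**Figure D2:**
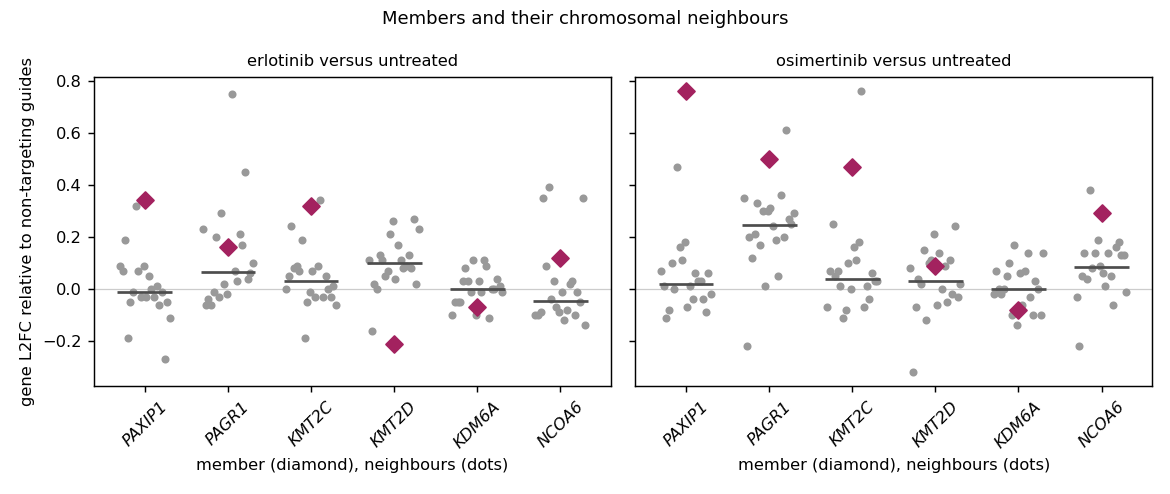
Gene L2FC relative to non-targeting guides (y axis) for each member (diamond) and the 10 tested genes on each side of it in RefSeq order (dots, median as a bar), for erlotinib (left) and osimertinib (right) versus untreated. PAXIP1 stands above all 20 neighbours in both panels, whereas the neighbours of PAGR1 have a median of 0.25 under osimertinib.

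KMT2C, the H3K4 methyltransferase often mutated in tumours, was past the threshold as higher under both drugs, as PAXIP1 was. Its level was 0.04 and -0.04 at T0, -0.15 and -0.25 in untreated cells, 0.02 and 0.20 under erlotinib, and 0.33 and 0.21 under osimertinib. Untreated libraries were lowest and osimertinib libraries highest, but erlotinib overlapped T0, and its upper library (0.20) came close to the lower osimertinib library (0.21).

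For osimertinib versus untreated, KMT2C had an L2FC of 0.47 ± 0.11 (n = 4 guides, 1.39-fold, rank 91), with guides between 0.34 and 0.56. Its erlotinib L2FC relative to untreated cells was 0.32 ± 0.26 (1.24-fold, rank 438). Here the guides fell apart, at 0.59 and 0.50 for guides 1 and 2 and 0.08 and 0.13 for guides 3 and 4, and the value was not past the threshold without untreated library 2 (0.27). The gain over T0 was 0.26 ± 0.07 under osimertinib and 0.12 ± 0.15 under erlotinib, and the direct difference of erlotinib from osimertinib, -0.16 ± 0.15, did not pass.

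KMT2D, the paralog of KMT2C, had 2 guides with few reads among its 4, and its gene value moved with them in several comparisons. Guide 1 had 32 and 27 reads at T0, 80 and 71 in untreated cells, 44 and 54 under erlotinib, and 50 and 64 under osimertinib. Guide 2 had 85 and 90 reads at T0, 90 and 110 in untreated cells, 67 and 54 under erlotinib, and 162 and 151 under osimertinib. Exact Poisson 95% intervals for guide 1, which cover counting error only, ran from 21.9 to 45.2 reads in T0 library 1 and from 63.4 to 99.6 reads in untreated library 1. These guides moved against each other, with an L2FC of -0.45 for guide 1 and 0.61 for guide 2 in osimertinib versus untreated.

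The well-read KMT2D guides, 3 and 4, with mean counts of 518.8 and 664.2, stayed near 0 under osimertinib, at 0.04 and 0.14 versus untreated and -0.01 and -0.01 versus T0. Under erlotinib they were at 0.05 and 0.35 versus untreated. The gene value for osimertinib versus untreated was 0.09 ± 0.43 (n = 4 guides). The erlotinib value versus untreated was -0.21 ± 0.43, past the threshold as lower, but it was 0.05 without guide 1, the only KMT2D guide with a mean under 100 reads, and 0.07 with limma. For osimertinib versus T0, 0.35 ± 0.45 passed as higher, and -0.01 was left without guide 1. No direction is therefore given for KMT2D.

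**Figure D3:**
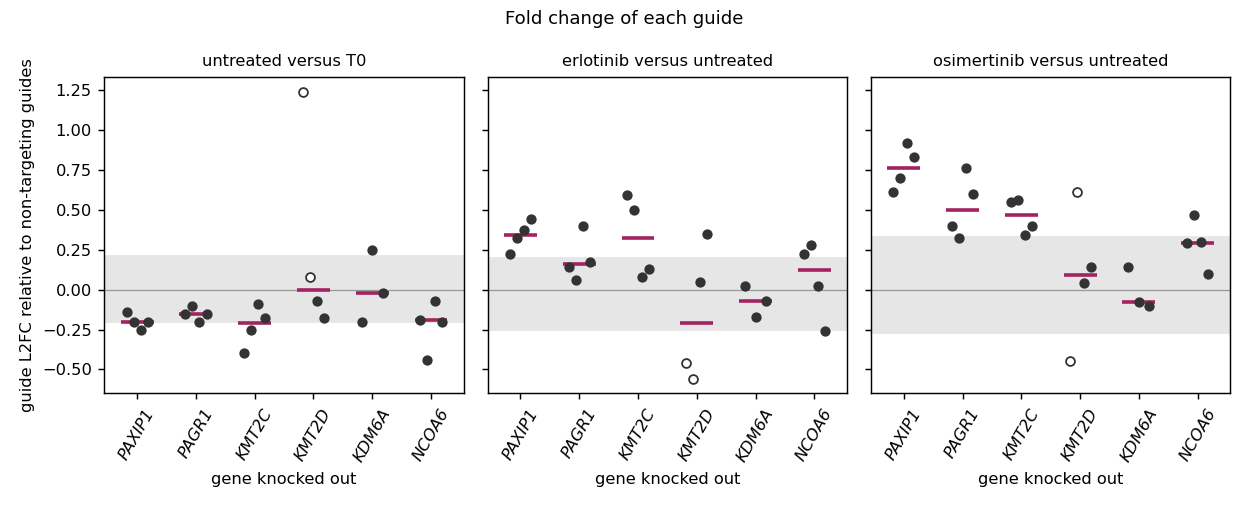
L2FC of each guide relative to non-targeting guides (y axis) by gene (x axis) in 3 comparisons. Bars mark the gene value, open circles guides with a mean under 150 reads, and the grey band the central 95% of non-targeting guides. All 4 PAXIP1 guides lie between 0.61 and 0.92 for osimertinib versus untreated, while the open KMT2D circles lie at -0.45 and 0.61.

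KDM6A, the H3K27 demethylase of the complex, was measured by 3 guides, since guide 4 had 0 reads in all 8 libraries, which allows up to 3 reads in each. Its level was 0.03 and -0.03 at T0, 0.00 and -0.01 in untreated cells, -0.11 and 0.04 under erlotinib, and -0.03 and -0.08 under osimertinib. The groups overlapped, except that both osimertinib libraries were just below both untreated libraries. The L2FC was -0.08 ± 0.13 (n = 3 guides) for osimertinib and -0.07 ± 0.09 for erlotinib versus untreated, and no comparison of KDM6A passed the threshold under any setting tried.

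NCOA6, the coactivator subunit, had a level of -0.03 and 0.03 at T0, -0.20 and -0.12 in untreated cells, -0.03 and -0.17 under erlotinib, and 0.07 and 0.07 under osimertinib. The osimertinib libraries were again highest, and erlotinib overlapped both T0 and untreated cells. The L2FC for osimertinib versus untreated was 0.29 ± 0.15 (n = 4 guides, 1.23-fold, rank 449), with guides between 0.10 and 0.47. It was not past the threshold without untreated library 2 (0.32) or without osimertinib library 2 (0.23). The erlotinib value versus untreated was 0.12 ± 0.24, with 3 guides above 0 and guide 4 at -0.26.

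Erlotinib was below osimertinib for NCOA6 by an L2FC of -0.24 ± 0.13, which was past the threshold, with all 4 guides below 0. That call did not hold without osimertinib library 1 (-0.24), osimertinib library 2 (-0.21) or erlotinib library 2 (-0.16), nor with limma (-0.20).

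Counted together, 4 of the 6 members were past the threshold as higher for osimertinib versus untreated, where 4.45% of all genes tested were. The members' median L2FC was 0.38, beside 0.01 for all genes. For erlotinib versus untreated, 2 members were higher, beside 6.35% of all genes, and 1 (KMT2D) was lower, beside 4.67%. That split of 2 and 1 became 3 and 0 with limma or the mean over guides, and 2 and 0 without guides under 100 reads. Their median was 0.14, beside 0.00. In the direct comparison of the drugs, 3 members were lower under erlotinib, beside 1.01% of all genes. The members were picked with these contrasts known, so nothing is read from these counts. Without untreated library 2 the members called for erlotinib versus untreated were 1 in place of 3, and without osimertinib library 1 those lower under erlotinib than osimertinib were 1 in place of 3.

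Counts were also made against T0. For osimertinib versus T0, 4 members were higher (PAXIP1, PAGR1, KMT2C and, through its sparse guides, KMT2D), beside 1.45% of all genes. For erlotinib versus T0, 1 member was higher, beside 0.625% of all genes. For untreated versus T0, 4 members were lower, beside 66.7% of all genes, and their median L2FC equalled that of all genes at -0.17. These 4 became 1 without untreated library 1 and 2 without T0 library 1. Both osimertinib libraries lay above both untreated libraries for 5 members, beside 24.7% of all genes, above both erlotinib libraries for 5, beside 15.8%, and above both T0 libraries for 5, beside 4.15%. These 5 were every member but KDM6A, and KMT2D rests there on its sparse guides. Both erlotinib libraries lay above both untreated libraries for 3 members (PAXIP1, PAGR1 and KMT2C), beside 27.8% of all genes. They lay above both T0 libraries for 3, beside 2.93%. These were PAXIP1, PAGR1 by a narrow margin, and KMT2D, whose erlotinib L2FC versus T0 was 0.00 without guides under 100 reads.

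The 5 genes whose levels were closest to those of PAXIP1 over the 6 untreated and drug-treated libraries (Euclidean distance, among 17273 genes with at least 3 guides) were RALGAPB (0.20), ZNF689 (0.21), TSC1 (0.24), AXIN1 (0.26) and LATS2 (0.27). RALGAPB encodes a subunit of the GTPase-activating complexes for Ral, TSC1 an inhibitor of mTORC1, AXIN1 a scaffold for beta-catenin destruction and LATS2 a kinase of the Hippo pathway. Their L2FC for osimertinib versus untreated ran from 0.56 (AXIN1) to 0.74 (ZNF689), and for erlotinib versus untreated from 0.29 (AXIN1) to 0.42 (TSC1). The neighbours of RALGAPB on chromosome 20 and of ZNF689 on chromosome 16 had medians of 0.21 and 0.25 for osimertinib versus untreated, and their part in these values was not tested. Among the other members, PAGR1 was 13th in closeness to PAXIP1 with a distance of 0.38, KMT2D 32nd (0.47), KMT2C 45th (0.51), NCOA6 875th (0.83) and KDM6A 3391st (0.98). The place of KMT2D rests on its sparse guides, since guides 3 and 4 were at -0.01 for osimertinib versus T0. This likeness is a description over libraries that all share 1 untreated and T0 baseline.

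Other genes of the KMT2 family, enhancer acetylation and the 53BP1 pathway were taken from lists written from general knowledge. Earlier results of these data were known at that time, so the counts and adjusted p-values of these genes stand as a description. Of 30 such genes, 27 could be tested. For erlotinib versus untreated 10 were higher, beside 6.35% of all genes tested, and 1 was lower. For osimertinib versus untreated 7 were higher, beside 4.45% of all genes tested, and 1 was lower, beside 4.63%. From T0 to untreated, 23 of the 27 were lower, beside 66.7% of all genes tested. Adjusted p-values below come from the comparison with non-targeting guides after Benjamini-Hochberg adjustment over all genes tested.

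The 4 core subunits that PAXIP1, PAGR1 and KMT2C share with every KMT2 complex were all depleted in untreated cells relative to T0. The L2FC was -0.97 ± 0.40 for RBBP5, -0.79 ± 0.59 for WDR5, -0.52 ± 0.26 for DPY30 and -0.47 ± 0.48 for ASH2L (n = 4 guides each, adjusted p = 0.000338). For erlotinib versus untreated, 3 of the 4 were higher, WDR5 by 0.50 ± 0.29 (adjusted p = 0.00298), DPY30 by 0.33 ± 0.16 (adjusted p = 0.00298, not without untreated library 2, at 0.28) and RBBP5 by 0.26 ± 0.13 (adjusted p = 0.00873), while ASH2L was at 0.12 ± 0.25 (adjusted p = 0.212).

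For osimertinib versus untreated, DPY30 passed, at 0.24 ± 0.10 (adjusted p = 0.0442), and it did not pass without untreated library 2 (0.17), osimertinib library 1 (0.02) or osimertinib library 2 (0.31), nor with limma or the mean over guides. WDR5 was at 0.21 ± 0.30 (adjusted p = 0.0742), but passed with limma (0.32), without guides under 100 reads (0.21) and without untreated library 1 (0.48). The remaining core subunits did not pass, RBBP5 at 0.09 ± 0.11 (adjusted p = 0.417) and ASH2L at -0.03 ± 0.11 (adjusted p = 0.766). These subunits lay below T0 under either drug (medians of -0.37 for erlotinib and -0.48 for osimertinib), whereas PAXIP1 lay above it. The direct comparison of the drugs passed for RBBP5 (0.27 higher under erlotinib, adjusted p = 0.0184, where 2.39% of all genes tested were higher), though not without osimertinib library 1 (0.20) or erlotinib library 1 (0.20) and not with limma.

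Genes of the SETD1A/B complexes, which make H3K4me3 at promoters, were higher under both drugs for 4 of 5. SETD1B, a catalytic subunit, had an L2FC of 0.37 ± 0.18 for erlotinib (adjusted p = 0.00298) and 0.60 ± 0.09 for osimertinib (adjusted p = 0.00538) versus untreated. CXXC1, which binds unmethylated CpG, had 0.49 ± 0.29 and 0.55 ± 0.23, and WDR82 had 0.42 ± 0.13 and 0.43 ± 0.16, at the same adjusted p-values. From T0 to untreated, knockouts of CXXC1 (L2FC of -0.62), WDR82 (-0.92) and SETD1A (-0.43) had been lost. SETD1B, at -0.16, was near the median of all genes (-0.17). Relative to T0, WDR82 was still lower under erlotinib (-0.53) and osimertinib (-0.58), as was SETD1A (-0.15 and -0.20), CXXC1 was at -0.11 and -0.07 without passing, and SETD1B was higher (0.40 and 0.52). SETD1A had 0.37 ± 0.19 under erlotinib. Under osimertinib its 0.26 ± 0.11 (adjusted p = 0.0392) did not pass without any 1 of the untreated or osimertinib libraries (0.19 to 0.25), and its 20 neighbours on chromosome 16 had a median of 0.23. Their part in the SETD1A value was not tested. BOD1L1 was at 0.11 in both comparisons and did not pass.

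Of the genes of the KMT2A/B complexes, MEN1 (menin) was lower. MEN1 fell by 0.34 ± 0.33 on the log2 scale under erlotinib (adjusted p = 0.00298) and by 0.43 ± 0.25 under osimertinib (adjusted p = 0.00538). The first did not pass without untreated library 2 (-0.19) and the second without osimertinib library 2 (-0.39). The 20 neighbours of MEN1 on chromosome 11 had a median of -0.18 in both comparisons, 8 of them past the threshold as lower, and their part in the MEN1 value was not tested. KMT2A, picked out after its values were seen, was at -0.11 under erlotinib and 0.15 under osimertinib without passing. It differed between the drugs by -0.32 ± 0.16 (adjusted p = 0.00728), where 1.01% of all genes tested were lower under erlotinib. That difference was not followed under other settings or with libraries left out.

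CREBBP and EP300, the acetyltransferases that place H3K27ac at enhancers, were higher under both drugs, as PAXIP1 was. CREBBP had an L2FC of 0.33 ± 0.21 for erlotinib (adjusted p = 0.00298) and 0.59 ± 0.23 for osimertinib (adjusted p = 0.00538) versus untreated. EP300 had 0.60 ± 0.23 under osimertinib (adjusted p = 0.00538) and 0.21 ± 0.14 under erlotinib (adjusted p = 0.0332), the latter not without untreated library 2 (0.19) or erlotinib library 1 (0.17). EP300 differed between the drugs by -0.27 ± 0.25 (adjusted p = 0.0195), which did not pass without osimertinib library 1 (-0.20) or erlotinib library 2 (-0.16) or with limma. KDM6B, the paralog of KDM6A, was at -0.12 ± 0.15 under erlotinib and -0.23 ± 0.10 under osimertinib versus untreated (n = 3 guides) and passed in neither. For osimertinib versus T0 it passed as lower (-0.21 ± 0.22, adjusted p = 0.0315), as 7761 of the 17761 genes tested did.

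**Figure D4:**
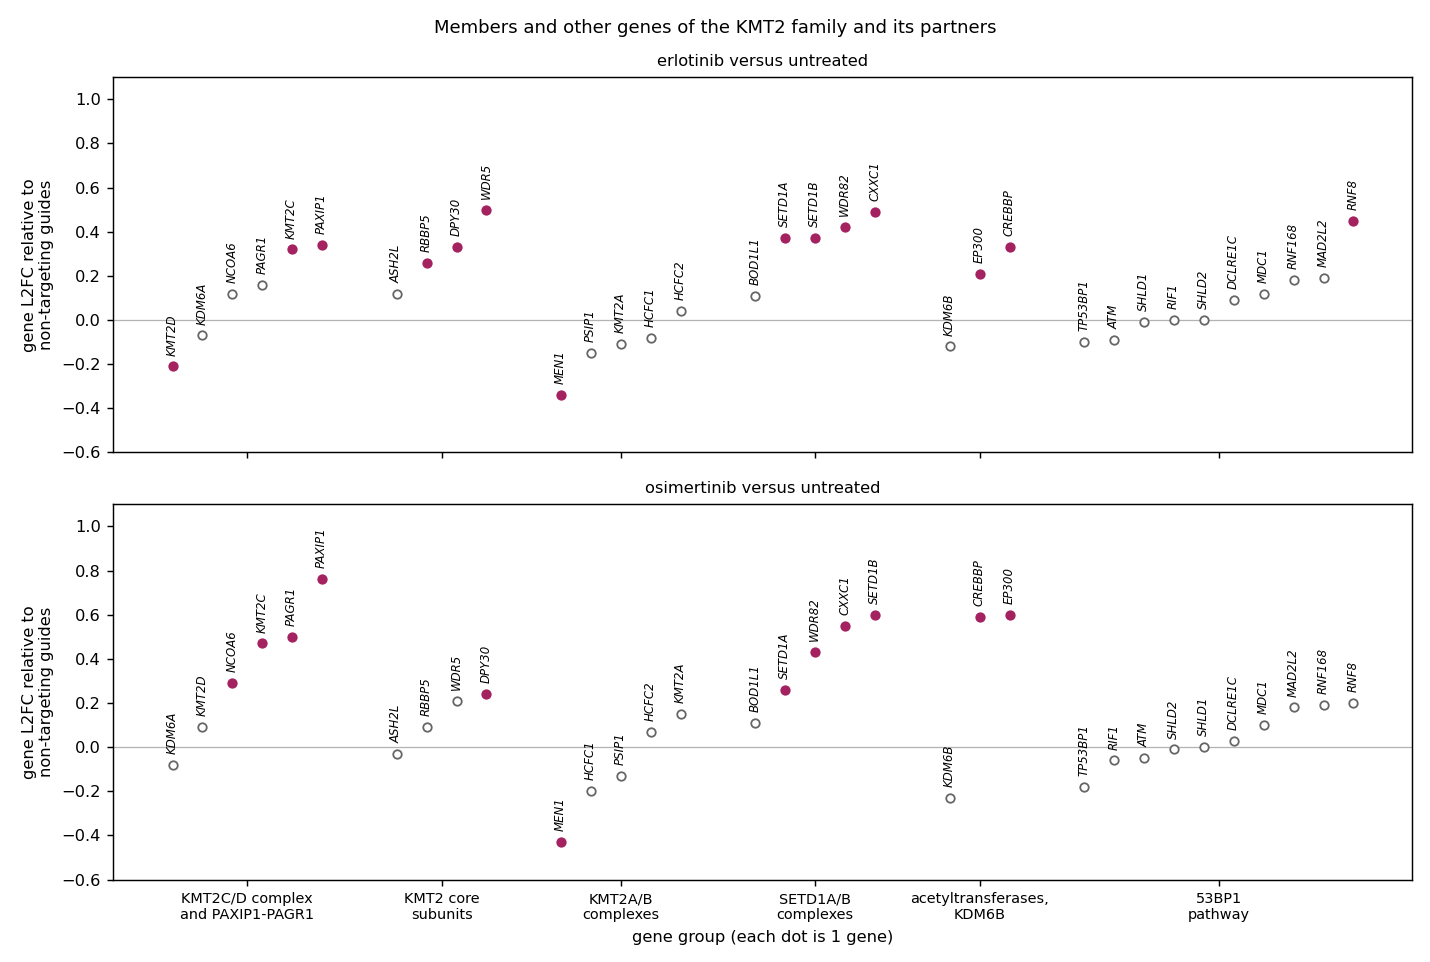
Gene L2FC relative to non-targeting guides (y axis) of the 6 members and 27 further genes, by group (x axis), for erlotinib (top) and osimertinib (bottom) versus untreated. Each dot is 1 gene, filled where it passed the genome-wide threshold. Under osimertinib PAXIP1 has the highest value of the 33 genes (0.76). No gene of the 53BP1 group is filled there, beside 4.45% of all genes tested that passed as higher and 4.63% as lower.

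The 53BP1 pathway, the other setting in which PAXIP1 acts, had 10 genes tested. For osimertinib versus untreated none passed with edgeR values, nor with DESeq2 or limma. Among all genes tested 4.45% were higher and 4.63% lower, so none of 10 is near that share. In the comparison with non-targeting guides, 4 of the 10 had an unadjusted p below 0.05. The share of all genes at that cut was not counted, so nothing is read from these 4. That share is at least the 9.08% of genes that passed after adjustment. The median L2FC of the 10 was 0.01, equal to that of all genes. TP53BP1 itself was at -0.18 ± 0.14 (adjusted p = 0.142), RIF1 at -0.06 ± 0.17 (adjusted p = 0.561) and MAD2L2 at 0.18 ± 0.25 (adjusted p = 0.142). For erlotinib versus untreated, 1 of the 10 was higher, beside 6.35% of all genes tested, and the median was 0.05. This was the ubiquitin ligase RNF8 at 0.45 ± 0.26 (n = 3 guides, adjusted p = 0.00298). Relative to T0, RNF8 was lower in untreated cells (-0.46) and still lower than T0 under erlotinib (-0.28) and osimertinib (-0.44). From T0 to untreated all 10 were lower, beside 66.7% of all genes tested, MAD2L2 by the most at -1.12 ± 0.50 (adjusted p = 0.000338).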

How the data were processed

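Guide abundance was measured in 8 libraries of Cas9-expressing PC9 cells, 2 for each of T0, untreated, erlotinib and osimertinib. Raw counts of reads for every guide, not normalized, were deposited by the authors. Guide inserts were amplified from genomic DNA by PCR without molecular identifiers, so intervals cover counting error only. Per the labels and methods, reads were trimmed and mapped to the guide library with Bowtie, given as Bowtie2 in the methods and as version 1.3.1 in the submitters' processing notes. Authors' simulations of growth and death rates were not used.

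Of 71090 guides, 4 were left out because a gene name damaged by a spreadsheet could not be restored (1 of 50 such names). The lowest 5% of guides by mean normalized count were also left out (46 reads), which kept 67531 guides, including 138 of 142 non-targeting guides. Counts of all 8 libraries were fitted with a quasi-likelihood negative binomial model in edgeR 4.0.16 (R 4.3.3, TMM scaling, common dispersion 0.00537, 4 residual degrees of freedom), used in place of the DESeq2 step of the methods. Guide L2FC were collapsed to a gene by the median over at least 2 guides, minus the median of non-targeting guides. A two-sided empirical p was drawn from 10000 samples of as many non-targeting guides (smallest possible value 1e-04) and adjusted (Benjamini-Hochberg) over all 17761 genes at a threshold of 0.05. The spread it uses is that of non-targeting guides and not that between cultures. The procedure was tested on simulated data. The low guide counts behind single values were given exact Poisson intervals, and 0 reads a floor of 3.

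The members and lists were chosen with earlier results of these data known. Named genes were the 6 members, the 4 core subunits, every listed gene past the threshold in a drug versus untreated comparison, and the 5 genes nearest to PAXIP1. BOD1L1, KDM6B, KMT2A, TP53BP1, RIF1 and MAD2L2 fall outside this rule and were picked after their values were seen. KMT2B and SHLD3 had no guides under the names searched and BOD1 had 1 guide, so they were not tested. A further gene, beside those lists, is not reported here. Gene order came from RefSeq (GRCh38.p14), in which 17688 of the tested genes (99.6%) had a position. The count table gives guide identifiers without sequences or a genome build, so no sequence or coordinate is given. Alternatives were DESeq2 1.42.0, no filter on low counts, a replicate block, centring on all targeting guides, the mean over guides, limma 3.58.1 on gene values by library, each library left out, and, chosen after seeing the data, guides under 100 reads left out.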

Additional observations from a re-analysis of the deposited data

Results flagged for a closer look

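The effects of erlotinib and osimertinib relative to untreated cells differed for 3 members in the direct comparison of the drugs, in which 1.01% of all genes tested were lower under erlotinib. The members were picked with this contrast known, so the count is a description. The L2FC of erlotinib relative to osimertinib was -0.39 for PAXIP1, -0.32 for PAGR1 and -0.24 for NCOA6, and all 4 guides of each gene lay below 0. In this contrast the 20 chromosomal neighbours had medians of -0.07 for PAXIP1, -0.15 for PAGR1 and -0.11 for NCOA6. Of these neighbours 0, 5 and 2 passed as lower and 1, 1 and 0 as higher. Their part in the 3 differences was not tested. The drugs were given at different doses, 10 µM and 0.1 µM, so drug and dose cannot be told apart. PAXIP1 was past the threshold with each library left out, PAGR1 was not without osimertinib library 1 (-0.28), and NCOA6 was not without osimertinib library 1 (-0.24), osimertinib library 2 (-0.21) or erlotinib library 2 (-0.16).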

How the results depend on the processing

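Of 540 values of members under other settings, 460 moved by no more than the spread and 76 by more. The spread is the SD between the 2 libraries of a group, pooled over the groups compared. Another 4 values, past the threshold in the main setting, changed sign. Sign changes of values not past it were not counted apart. Where the library left out belonged to neither group compared, the value could hardly move, which adds to the 460. Centring on all targeting guides turned PAGR1 for untreated versus T0 to 0.02 and SETD1B to 0.02. KMT2D turned to 0.07 (limma) and 0.05 (guides under 100 reads left out, which removed its guide 1 but not guide 2) for erlotinib versus untreated, and to -0.01 for osimertinib versus T0 without guide 1. Centring on all targeting guides, which shifts values by the all-gene median of -0.17 or -0.14, took genes called from 11878 (30 higher, 11848 lower) to 4132 (1341 higher, 2791 lower) for untreated versus T0, from 9016 (111 higher, 8905 lower) to 4087 (1343 higher, 2744 lower) for erlotinib versus T0, and from 8018 (257 higher, 7761 lower) to 4861 (1675 higher, 3186 lower) for osimertinib versus T0. It took members called from 4 (all lower) to 1 (KMT2D, higher) and from 1 to 4 (all higher) in the first and second of these. With limma, genes called went from 1957 to 1266 for erlotinib versus untreated and from 604 to 243 for erlotinib versus osimertinib, and members called to 1 for untreated versus T0 and 0 for erlotinib versus T0. With the mean over guides, genes called went from 1612 to 1005 for osimertinib versus untreated and members called to 2 for erlotinib versus T0. Leaving out single libraries gave 8324 to 11889 genes for untreated versus T0, 956 (without untreated library 2) to 2345 for erlotinib versus untreated, 360 (without osimertinib library 2) to 1673 for osimertinib versus untreated, 6815 to 9022 for erlotinib versus T0, 5580 to 8019 for osimertinib versus T0 and 117 (without osimertinib library 1) to 606 for erlotinib versus osimertinib. Osimertinib versus untreated also fell to 607 without untreated library 2 and 817 without osimertinib library 1, erlotinib versus untreated to 1217 without erlotinib library 2, and erlotinib versus osimertinib to 371 without osimertinib library 2 and 275 without erlotinib library 1. Members called then ranged from 1 to 4, 1 to 3, 3 to 4, 0 to 2, 4 to 5 and 1 to 3 in the same order. Where an arm held 1 library it was assumed to vary like the other groups. Same-numbered libraries did not deviate together (correlations of -0.00355 to 0.0164), so they were treated as unpaired. This does not show whether they share an infection, which the labels do not say. A replicate block left members called at 4, 3, 4, 1, 4 and 3, and genes called at 11877, 1932, 1518, 8923, 8085 and 609. The causes of these shifts were not tested.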
